A study of Sus scrofa with 4 samples.

Results

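The genes that encode potassium channels and voltage-gated calcium channels, with their auxiliary subunits, were compared between reporter-bright and reporter-negative cells sorted from the lungs of pigs with the LGR5-H2B-GFP knock-in. Members were all rows of the count tables whose gene name begins with KCN or CACN followed by a further letter. This gave 108 of 29263 genes, 85 of them KCN and 23 CACN. In these animals green fluorescent protein fused to a histone reports LGR5, and every library, in both groups, comes from that genotype and from lung. Dissociated cells were sorted into GFP-HI (bright) and GFP-NEG (no fluorescence), with 2 libraries in each group, labelled biological replicates 1 and 2, and no treatment. The sorting text covers adult and fetal pigs and antibodies to EPCAM and NGFR without saying which apply to these libraries, and no label gives the age of the animals, although the name of the authors' comparison table reads adult pig. GFP-NEG is whatever lacked the reporter and can hold many lung cell types, although the tissue was washed against blood and immune cells and dead cells were gated out, per the labels.

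Potassium channels let potassium leave the cell and so hold the membrane potential negative, while voltage-gated calcium channels open on depolarisation and admit calcium for contraction, secretion and transcription. Pore-forming alpha subunits are accompanied by auxiliary subunits that set how many channels reach the membrane and how they gate. In lung these families are best known for the tone of airway and vascular smooth muscle, calcium signalling in lymphocytes and ion transport across epithelium.

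Levels are given as counts per 1000000 (CPM), with each library total multiplied by its TMM scaling factor. CPM is not divided by gene length, so it compares libraries for 1 gene, not genes with each other. Library totals were 24200550 and 24689986 counts for GFP-HI against 6292253 and 7045652 for GFP-NEG, a ratio of 3.67, so depth and group cannot be told apart. A single count was worth 0.0453 and 0.0496 CPM in GFP-HI against 0.155 and 0.109 CPM in GFP-NEG. LGR5, which carries the reporter, had 3218 and 3073 counts in GFP-HI against 10 and 7 in GFP-NEG (log2 fold change 7.03, SE 0.72, adjusted p = 3.7e-19), which goes with the labels. Of 12 fibroblast markers 9 were higher in GFP-HI, with summed levels of 84993 to 88676 CPM against 9460 to 26633 CPM in GFP-NEG. Of 12 immune markers 9 were lower (285 to 437 against 1935 to 2699 CPM), as were 8 of 9 endothelial (215 to 217 against 580 to 1415 CPM) and 3 of 10 epithelial markers (367 in each GFP-HI library against 217 and 824 CPM). Smooth muscle and pericyte markers were mixed, 2 higher and 4 lower of 11, and differed between the GFP-NEG libraries (2788 and 450 CPM) more than between the GFP-HI libraries (2472 and 2860 CPM). Neuronal and glial markers summed to 8.24 and 20.5 CPM in GFP-HI against 9.45 and 19.0 CPM in GFP-NEG, with CDH19 at 0 in all 4 libraries and RBFOX3 lower in GFP-HI. Neuroendocrine markers, of which 2 of 5 were in the tables, summed to at most 6.08 CPM in any library. The part of any of these cell classes in the channel values below was not tested, and in sorted bulk cells fewer cells of a type and less RNA per cell cannot be told apart.

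Most channel genes were at low levels, and few were at or near zero in every library. Counts were 0 in all 4 libraries for CACNA2D4, KCNK4, KCNMB3 and KCNU1. A count of 0 allows up to 0.136 and 0.149 CPM in the GFP-HI libraries and 0.465 and 0.326 CPM in the GFP-NEG libraries (3 counts). KCNE5 was the only other member under 0.5 CPM in every library, with 3 counts in GFP-HI replicate 2 and 0 in the rest. A further 12 members stayed under 1 CPM in every library, among them CACNA1I, a T-type calcium channel pore, and KCNK3, a background potassium channel known from pulmonary artery muscle. The groups differed in how many members were found at all. In each GFP-HI library 65 of 108 members had a count, against 93 and 103 in replicates 1 and 2 of GFP-NEG, although the GFP-HI libraries were the deeper ones. As shares this is 60.2% in each GFP-HI library against 86.1% and 95.4%, beside 64.1% and 62.9% against 82.4% and 88.8% over all genes in the tables. With GFP-HI thinned at random to the GFP-NEG depth, 58 and 56 members had a count. At 0.5 CPM or more were 44 and 40 members in the GFP-HI libraries against 77 and 98 in the GFP-NEG libraries. Over all 29263 genes these numbers were 15141 and 15066 against 20500 and 23615, so most genes in the tables shared this direction. At 10 CPM or more the libraries held similar numbers, 13 in replicate 1 and 8 in replicate 2 of either group.

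**Figure D1:**
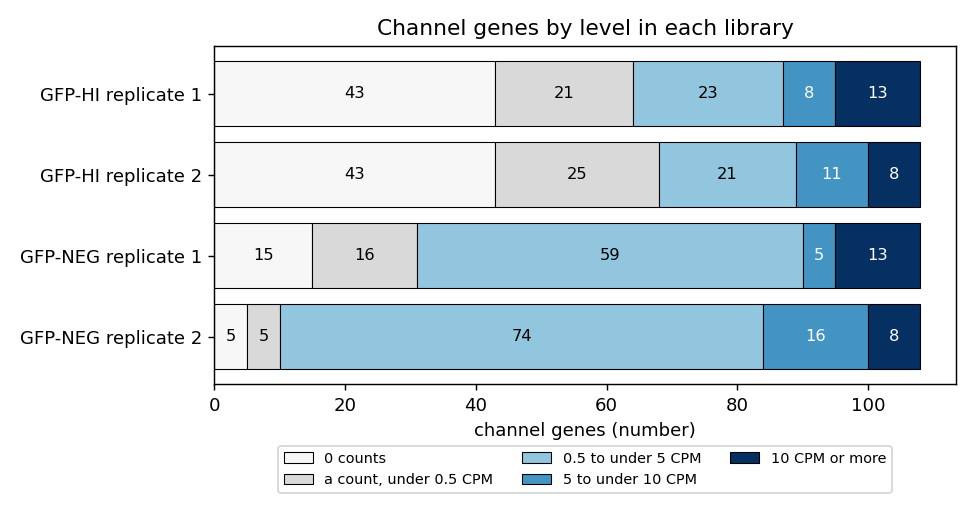
Number of the 108 channel genes (x axis) in each class of CPM level, for each of the 4 libraries (rows). The GFP-HI libraries each hold 43 genes with 0 counts, the GFP-NEG libraries 15 and 5, while the darkest class, 10 CPM or more, holds 8 or 13 genes in every library.

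The question the design puts to these genes is which of them differ between LGR5-reporter cells and the remaining lung cells. Of the 108 members 73 had enough counts to be tested, and the other 35 stayed at or under 4.12 CPM in every library. At an adjusted p under 0.05 (edgeR quasi-likelihood test over all 19682 tested genes), 3 members were higher in GFP-HI, 4.11% of those tested against 8.35% of all genes, and 34 were lower, 46.6% against 27.6% of all genes. In either direction 36.0% of all genes were called. The median log2 fold change was -1.89 over the tested members and -0.25 over all tested genes. For the members it was the same with genes at 0 counts in GFP-HI set to the lower GFP-NEG library over 3 GFP-HI counts. All values so set still lie below the median, so this step could not move it and nothing is read from it. A member at 0 counts in GFP-HI can only enter the test through its GFP-NEG counts, and all 11 such members that were tested were called lower, while 21 others at 0 counts in both GFP-HI libraries were not tested. The lower calls were mostly of small counts: 26 of the 34 had a mean under 5 CPM in both groups. None of those 26 exceeded 14 counts in a GFP-HI library, too few to pass the filter there. They entered the test through GFP-NEG alone, as did KCNJ11 and KCNS2. For these genes the filter favoured a lower call, so the 46.6% is not read as a trait of the members. Among the 30 members with a mean of at least 5 CPM in either group, with p-values adjusted again over the 12891 genes at that level, 3 were higher (10.0%, against 11.4% of all such genes) and 7 lower (23.3%, against 14.3%), and the median was -0.52 against 0.30 for all such genes. Of the 34 lower calls 7 were made again without GFP-NEG replicate 2, with 57 members tested, and 17 without GFP-NEG replicate 1. With the replicate number as a block 25 of the 34 were called.

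**Figure D2:**
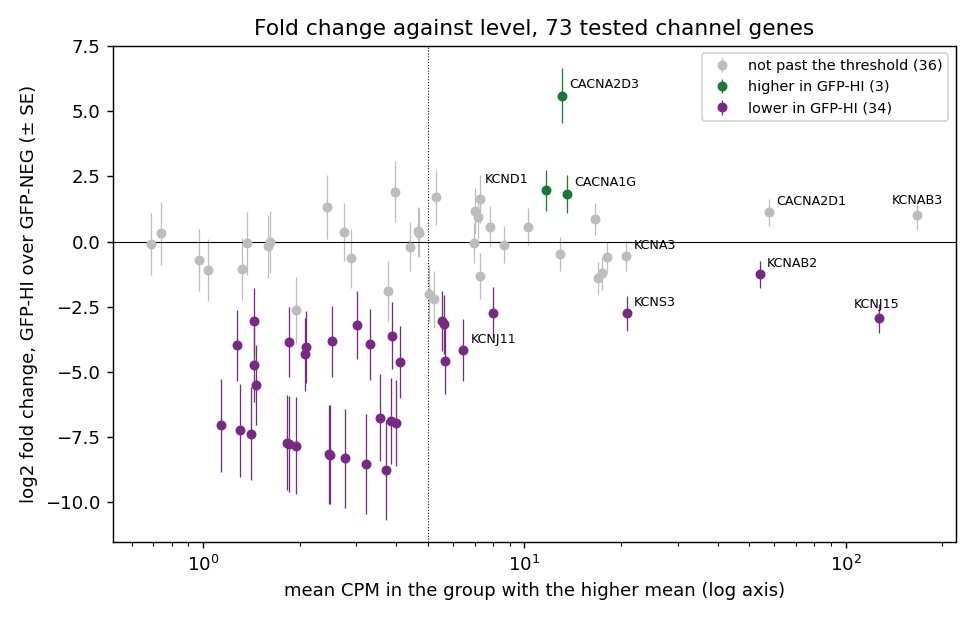
Log2 fold change of GFP-HI over GFP-NEG (y axis, bars are the standard error) against the mean CPM of the group with the higher mean (x axis, log scale) for the 73 tested channel genes; the dotted line marks 5 CPM, and the fitted values of the 11 genes with 0 counts in GFP-HI depend on the prior count and are no bounds. Most of the 34 lower calls lie left of the line, and CACNA2D3, CACNA1G and KCND1 are the 3 higher calls.

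Among the pore-forming alpha-1 subunits of calcium channels, 5 of 7 members were tested, 1 was higher and 1 lower. For this and each class below, the shares over all tested genes were 8.35% higher and 27.6% lower. CACNA1G, a T-type pore that opens at small depolarisations, was at 14.5 and 12.6 CPM in GFP-HI against 3.72 and 3.80 CPM in GFP-NEG. The groups did not overlap, and the log2 fold change was 1.84 (SE 0.74, adjusted p = 0.037). The call was close to the threshold: it was lost with library totals alone (adjusted p = 0.20) and when any 1 library was left out, with log2 fold changes of 1.82 to 2.03. CACNA1H, a second T-type pore gene, was at 13.9 and 6.74 CPM in GFP-HI against 7.59 and 6.19 CPM in GFP-NEG. Its groups overlapped and its log2 fold change of 0.57 (SE 0.71) did not pass (adjusted p = 0.57). CACNA1D, an L-type pore, was at 4.71 and 4.61 CPM in GFP-HI against 4.96 and 2.17 CPM in GFP-NEG, also overlapping. CACNA1E, an R-type pore best known from neurons, was the lower call, and it rested on 1 library: counts were 7 and 0 in GFP-HI, while GFP-NEG had 6 in replicate 1 and 67 in replicate 2. It had too few counts to be tested without that library, and was not called without GFP-HI replicate 2 (adjusted p = 0.12). CACNA1F, the L-type pore of the retina, showed the same library apart, with 0.815 and 1.24 CPM in GFP-HI against 0.465 and 7.06 CPM, and did not pass (adjusted p = 0.21). CACNA1S, the skeletal muscle pore, had 26 counts in GFP-NEG replicate 2 and 0 elsewhere and was not tested.

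CACNA1C, the L-type pore of smooth and cardiac muscle, is listed only by an Ensembl identifier, so the name rule did not take it in, and its row was found through the gene name table. It was at 19.5 and 10.5 CPM in GFP-HI against 2.94 and 2.28 CPM in GFP-NEG, with no overlap (log2 fold change 2.52, SE 0.75, adjusted p = 0.0037). The fold change stayed between 2.13 and 2.98 when single libraries were left out. The call was lost in the fits without GFP-HI replicate 1 (adjusted p = 0.089) and without GFP-NEG replicate 2 (adjusted p = 0.080). The other calcium channel gene listed by identifier, CACNA1A, had 1 count in all 4 libraries together.

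The alpha-2-delta subunits, extracellular partners that raise the number of calcium channels at the membrane, held the largest difference among the higher channel genes. CACNA2D3 had 411 and 153 counts in GFP-HI and 2 in each GFP-NEG library. This is 18.6 and 7.58 CPM against 0.310 and 0.217 CPM, both GFP-NEG libraries being at or near zero and both GFP-HI libraries well above them. Over the summed counts the level was 52.3 times that of GFP-NEG, with an exact 95% interval for counting error of 20.3 to 193, since the GFP-NEG total was 4 counts. The fitted log2 fold change was 5.61 (SE 1.04, adjusted p = 2.7e-06), and CACNA2D3 was called higher under all 12 alternatives fitted. CACNA2D1, whose product is a target of gabapentin, was at 58.5 and 57.4 CPM in GFP-HI against 40.4 and 12.6 CPM in GFP-NEG. The groups did not overlap, but the log2 fold change of 1.13 (SE 0.52) missed the threshold (adjusted p = 0.077). It passed with the replicate block (adjusted p = 0.044), and the log2 fold change was 2.24 without GFP-NEG replicate 1 and 0.48 without GFP-NEG replicate 2. CACNA2D2 was at 1.90 and 2.97 CPM against 0.465 and 1.41 CPM and did not pass (adjusted p = 0.43), and CACNA2D4 had no count.

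All 4 beta subunits, cytoplasmic proteins that carry alpha-1 subunits to the membrane, were tested, and CACNB4 alone was called. It was lower, with 1 and 24 counts in GFP-HI against 34 and 55 in GFP-NEG, or 0.0453 and 1.19 CPM against 5.27 and 5.97 CPM. Its log2 fold change was -3.19 (SE 1.15, adjusted p = 0.019), with -2.09 without GFP-HI replicate 1 and -6.59 without GFP-HI replicate 2. Of the fits without 1 library only the last kept the call. CACNB1 (9.38 and 4.96 against 3.72 and 3.69 CPM) and CACNB3 (6.07 and 4.56 against 0.930 and 2.28 CPM) were above GFP-NEG in both GFP-HI libraries without passing the test, with adjusted p-values of 0.42 and 0.21. CACNB2 was at 4.17 and 5.20 CPM against 4.03 and 3.36 CPM (adjusted p = 0.82). Gamma subunits, several of which serve glutamate receptors in neurons rather than calcium channels, were low throughout: the 8 genes together summed to 1.22 and 0.446 CPM in GFP-HI against 6.20 and 13.4 CPM in GFP-NEG. CACNG8 had 0 counts in both GFP-HI libraries, against 17 and 35 in GFP-NEG. Its lower GFP-NEG library was at 17.7 times the level of 3 counts in a GFP-HI library, with counting error in GFP-NEG left out.

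Proteins that regulate calcium channels without belonging to the named families were read from a separate list of 8. CACHD1, an alpha-2-delta-like protein that increases T-type currents, was at 65.6 and 69.1 CPM in GFP-HI against 8.06 and 5.64 CPM in GFP-NEG. Replicates lay close together and the groups were far apart, with a log2 fold change of 3.29 (SE 0.57, adjusted p = 4.2e-07) and 3.02 to 3.61 when single libraries were left out. GEM, a small GTPase that inhibits voltage-gated calcium channels, was higher as well, at 233 and 277 CPM against 103 and 23.2 CPM (log2 fold change 2.01, SE 0.62, adjusted p = 0.0046). The size of the GEM difference depended on the GFP-NEG libraries: it was 3.49 without replicate 1 and 1.27 without replicate 2, and the call was lost in the latter fit (adjusted p = 0.49) and without GFP-HI replicate 2 (adjusted p = 0.086). REM1, of the same GTPase family, was at 107 and 44.8 CPM against 62.1 and 7.49 CPM, with overlap, and did not pass (adjusted p = 0.080). It passed with the replicate block (adjusted p = 0.017) and without GFP-NEG replicate 1 (log2 fold change 3.37, against 1.12 with all libraries). STAC, STAC2, STAC3, REM2 and RRAD did not pass, with log2 fold changes of -2.72 to 0.14.

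**Figure D3:**
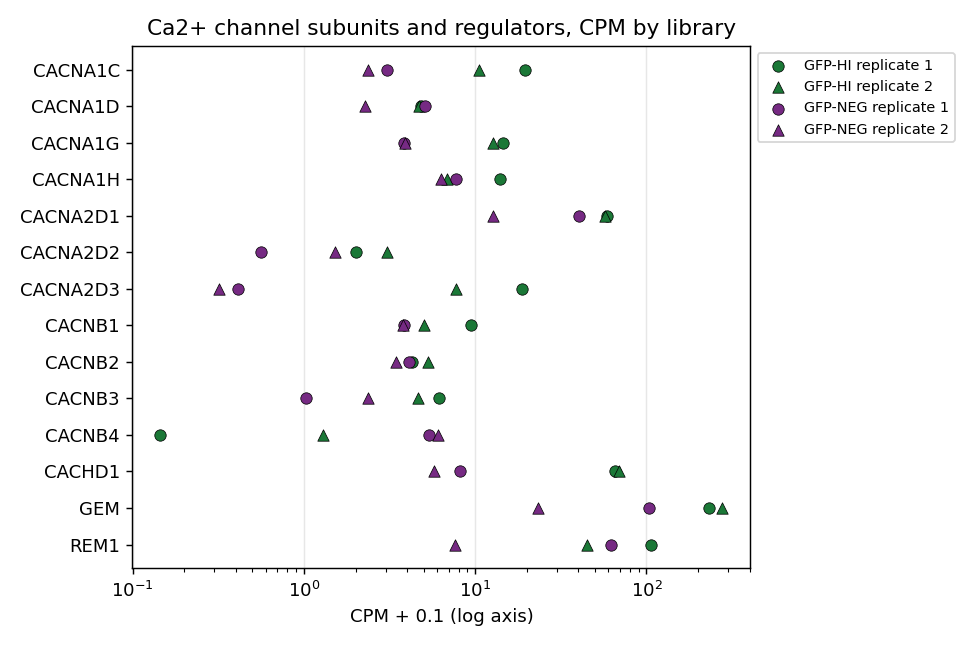
CPM plus 0.1 (x axis, log scale) of calcium channel subunits and 3 regulators in each library; green symbols are GFP-HI, purple GFP-NEG, circles replicate 1 and triangles replicate 2. CACNA1C, CACNA1G, CACNA2D3, CACHD1 and GEM, all called higher, have both green symbols right of both purple ones. So do CACNA2D1, CACNA2D2, CACNB1, CACNB2 and CACNB3, which were not called. CACNB4 has the reverse.

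Voltage-gated potassium channel alpha subunits were the largest class, 37 members of which 22 were tested, 1 was higher and 15 lower. Over all tested genes 8.35% were higher and 27.6% lower. Most of the 15 had means under 5 CPM in both groups and passed the filter through GFP-NEG alone, so the class count is not read as a trait of the class. KCND1, the pore of a rapidly inactivating A-type channel, was at 12.2 and 11.2 CPM in GFP-HI against 2.63 and 3.26 CPM in GFP-NEG. Replicates lay close together in each group and the groups did not overlap; the log2 fold change was 1.98 (SE 0.78, adjusted p = 0.035). Like CACNA1G it lost its call with library totals alone (adjusted p = 0.19) and without any 1 library (log2 fold changes of 1.88 to 2.14). KCNS3, an electrically silent subunit that modifies KCNB channels, was the best counted of the lower genes in this class, with 100 and 33 counts in GFP-HI against 222 and 67 in GFP-NEG. This was 4.53 and 1.64 CPM against 34.4 and 7.27 CPM, with no overlap, and a log2 fold change of -2.75 (SE 0.67, adjusted p = 2.9e-04). Without GFP-NEG replicate 1 it was -1.20 and not past the threshold (adjusted p = 0.38), nor was it past it without GFP-HI replicate 2 (adjusted p = 0.084). KCNS2, another silent subunit, was lower by the test (log2 fold change -4.59, adjusted p = 0.0014) on 9 and 1 counts in GFP-HI against 8 and 93 in GFP-NEG, where replicate 2 was the high library. Without that library its log2 fold change was -2.43 (adjusted p = 0.60), and the call was also lost without GFP-HI replicate 2 (adjusted p = 0.082).

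KCNA3, the main voltage-gated potassium channel of T lymphocytes, did not pass the test, with 12.8 and 15.7 CPM in GFP-HI against 10.7 and 30.8 CPM in GFP-NEG. The GFP-HI values lay between the GFP-NEG values, and the log2 fold change was -0.56 (SE 0.57, adjusted p = 0.48). KCNS1 was at 10.1 and 3.92 CPM against 3.87 and 2.28 CPM (adjusted p = 0.31). The remaining 13 lower calls of the class had means under 5 CPM, among them KCNA1, KCNC4, KCNH5 and KCNH7, each with 0 counts in both GFP-HI libraries.

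Auxiliary potassium channel subunits, 14 members with 12 tested, held 3 lower calls and no higher call. Over all tested genes 27.6% were lower and 8.35% higher. KCNE1, described below, was left out of this class by its row name. KCNAB2, a cytoplasmic beta subunit of KCNA channels, was at 10.8 and 35.0 CPM in GFP-HI against 38.0 and 70.1 CPM in GFP-NEG. The groups did not overlap, though GFP-HI replicate 2 lay close to GFP-NEG replicate 1, and the log2 fold change was -1.25 (SE 0.52, adjusted p = 0.046). DESeq2 did not call it (adjusted p = 0.14), and the fold change was -0.47 without GFP-HI replicate 1 and -0.77 without GFP-NEG replicate 2. Of the fits without 1 library only that without GFP-HI replicate 2 kept the call. KCNAB3, of the same family, was at 88.8 and 245 CPM in GFP-HI against 86.2 and 77.9 CPM in GFP-NEG. GFP-HI replicate 2 alone stood apart, and the log2 fold change of 1.02 (SE 0.58) did not pass (adjusted p = 0.16). KCNAB1 was at 10.3 and 13.6 CPM against 21.5 and 14.8 CPM and did not pass either (adjusted p = 0.46). KCNMB1, the smooth muscle beta subunit of the large-conductance calcium-activated channel, had 19 and 9 counts in GFP-HI against 66 and 8 in GFP-NEG. Only the replicate 1 library of GFP-NEG was high, at 10.2 CPM against 0.868 CPM in its partner and 0.861 and 0.446 CPM in GFP-HI. The adjusted p was 0.026 without and 0.11 with the replicate block, and the log2 fold change was -3.06 with and -0.37 without that library. The call was also lost without either GFP-HI library (adjusted p = 0.094 and 0.17). In GFP-NEG replicate 1 the 11 smooth muscle and pericyte markers summed to 2788 CPM, against 450 CPM in GFP-NEG replicate 2 and 2472 and 2860 CPM in GFP-HI. Single markers were mixed. MYH11 was at 306 CPM in GFP-NEG replicate 1, against 56.5 CPM in GFP-NEG replicate 2 and 43.5 and 28.4 CPM in GFP-HI. PDGFRB was at 153 CPM there, against 30.5 CPM in GFP-NEG replicate 2 and 704 and 387 CPM in GFP-HI. KCNIP1, a calcium-binding subunit of KCND channels, had 0 and 1 counts against 18 and 45 and was lower (adjusted p = 2.3e-04); it overlaps KCNMB1 in the RefSeq annotation. KCNE3 and KCNE4, small single-span subunits, did not pass.

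KCNE1, the partner of KCNQ1 in the slow delayed rectifier of the heart, was the second identifier-only row with substantial counts. It had 781 and 1381 counts in GFP-HI against 82 and 14 in GFP-NEG, or 35.4 and 68.4 CPM against 12.7 and 1.52 CPM. Both GFP-HI libraries were above both GFP-NEG libraries, with a log2 fold change of 2.88 (SE 0.57, adjusted p = 1.2e-05). The GFP-NEG libraries differed from each other, and the log2 fold change was 5.12 without replicate 1 and 1.99 without replicate 2, where the adjusted p was 0.091. KCNQ1 itself had 2 and 5 counts in GFP-HI against 6 and 18 in GFP-NEG. It was lower at an adjusted p of 0.047, and not with the replicate block (adjusted p = 0.20) or DESeq2 (adjusted p = 0.17). KCNMB2 and KCNH1, the other identifier-only rows, had 0 counts in GFP-HI and at most 5 in a GFP-NEG library.

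Of the 6 pore genes of calcium- or sodium-activated potassium channels 4 were tested, and 0 were called by edgeR, at an unadjusted p under 0.05 or by DESeq2. Over all tested genes 36.0% were called in either direction, and 4 genes are too few to compare with that share. KCNMA1, the large-conductance pore that KCNMB1 accompanies, was at 17.7 and 15.6 CPM in GFP-HI against 13.8 and 4.56 CPM in GFP-NEG (log2 fold change 0.86, SE 0.62, adjusted p = 0.29). Its log2 fold change was 1.90 without GFP-NEG replicate 1 and 0.23 without GFP-NEG replicate 2, past the threshold in neither. KCNN3, a small-conductance pore, was at 7.56 and 8.47 CPM against 7.28 and 9.99 CPM, with overlapping groups (log2 fold change -0.12, SE 0.72). KCNN4, the intermediate-conductance pore of lymphocytes and fibroblasts, was at 0.634 and 2.18 CPM against 1.55 and 1.63 CPM. KCNU1, a sperm channel, had no count.

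Inward rectifiers, which pass potassium best near the resting potential, had 9 lower calls and 0 higher among 13 tested of 14. Over all tested genes 27.6% were lower and 8.35% higher. At an unadjusted p under 0.05, and in DESeq2, 0 were higher as well, here and among the auxiliary and KCNK genes taken in by name. Beside the small share of all genes called higher, nothing is read from this in classes of so few genes. KCNE1, an auxiliary gene listed by identifier only, was higher. KCNJ15 was at 24.6 and 8.18 CPM in GFP-HI, and in GFP-NEG at 245 CPM in replicate 1 and 9.12 CPM in replicate 2. A single library held the difference, the GFP-NEG replicate 2 value lying between the GFP-HI values. The log2 fold change was -2.95 (SE 0.57, adjusted p = 6.3e-06), but 0.89 without GFP-NEG replicate 1. DESeq2 gave an adjusted p of 0.20, and the fit without GFP-HI replicate 2 one of 0.14. The 12 immune markers summed to 1935 CPM in GFP-NEG replicate 1, against 2699 CPM in GFP-NEG replicate 2 and 285 and 437 CPM in GFP-HI. Single immune markers were mixed. S100A8 (195 against 27.6 CPM), CD14, CD68 and LYZ were higher in replicate 1 of GFP-NEG than in replicate 2, and the others lower. Endothelial (1415 against 580 CPM), epithelial, fibroblast and smooth muscle sums were also higher in replicate 1, neuronal and neuroendocrine sums lower. Which cells carry the KCNJ15 counts was not tested. KCNJ11, the pore of the ATP-sensitive channel of pancreatic beta cells, had 7 and 8 counts in GFP-HI against 21 and 89 in GFP-NEG. It was at 0.317 and 0.396 CPM against 3.25 and 9.66 CPM, with no overlap (log2 fold change -4.16, SE 1.18, adjusted p = 0.0019). Without GFP-NEG replicate 2 its log2 fold change was -3.20 (adjusted p = 0.22). KCNJ2, a strong inward rectifier that sets resting potential in many cells, was at 7.56 and 5.15 CPM against 20.9 and 13.0 CPM, apart in all 4 libraries. It missed the threshold (log2 fold change -1.42, SE 0.65, adjusted p = 0.073). KCNJ2 passed with the replicate block (adjusted p = 0.041), upper-quartile scaling (adjusted p = 0.033) and library totals alone (adjusted p = 0.028). It missed the threshold in the other alternatives fitted to all 4 libraries.

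KCNJ8 and ABCC9 encode the pore and the sulfonylurea receptor of the ATP-sensitive channel of pericytes and vascular muscle. KCNJ8 was at 7.11 and 7.88 CPM in GFP-HI against 30.7 and 4.34 CPM in GFP-NEG. ABCC9 was at 5.53 and 6.10 CPM in GFP-HI against 26.2 and 8.47 CPM in GFP-NEG. For both genes GFP-NEG replicate 1 was the high library. The smooth muscle and pericyte markers were mixed there, with a sum about the same as in GFP-HI. MYH11 was at 306 CPM there, against 56.5 CPM in GFP-NEG replicate 2 and 43.5 and 28.4 CPM in GFP-HI. CNN1, DES, MCAM and RGS5 were also highest there. ACTA2, CSPG4, LMOD1, NOTCH3, PDGFRB and TAGLN were highest in a GFP-HI library. Whether such cells carry the KCNJ8 and ABCC9 counts was not tested. KCNJ8 did not pass (log2 fold change -1.22, SE 0.63, adjusted p = 0.12), and its fold change was 0.82 without GFP-NEG replicate 1. ABCC9 was lower at an adjusted p of 0.045 (log2 fold change -1.58, SE 0.65), which was 0.061 with the replicate block, and its fold change was -0.51 without that library. Neither was ABCC9 called without either GFP-HI library or in DESeq2 (adjusted p = 0.085).

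Of the 14 KCNK genes, whose tandem-pore channels carry background potassium current, 7 were tested, 4 were lower and 0 higher. Over all tested genes 27.6% were lower and 8.35% higher, and 7 genes are too few to compare with those shares. KCNK5, a channel of epithelium and lymphocytes opened by alkaline conditions, was at 1.27 and 1.14 CPM in GFP-HI against 6.20 and 9.77 CPM in GFP-NEG. Replicates were close in GFP-HI, the groups did not overlap, and the log2 fold change was -2.73 (SE 0.97, adjusted p = 0.016), with values of -2.98 to -2.40 in the fits without 1 library. Of those fits only the one without GFP-NEG replicate 1 kept the call. KCNK10, a channel gated by stretch and lipids, had 0 counts in both GFP-HI libraries, and in GFP-NEG 5 in replicate 1 and 61 in replicate 2. The lower of its GFP-NEG libraries was at 5.21 times the level of 3 counts in GFP-HI, with counting error in GFP-NEG left out. KCNK6 was at 10.1 and 8.57 CPM against 11.2 and 14.8 CPM (adjusted p = 0.60), and KCNK1 at 1.77 and 4.06 CPM against 10.2 and 4.34 CPM (adjusted p = 0.25). KCNK3 had 0 counts in both GFP-HI libraries against 5 and 4 in GFP-NEG, too few to test.

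**Figure D4:**
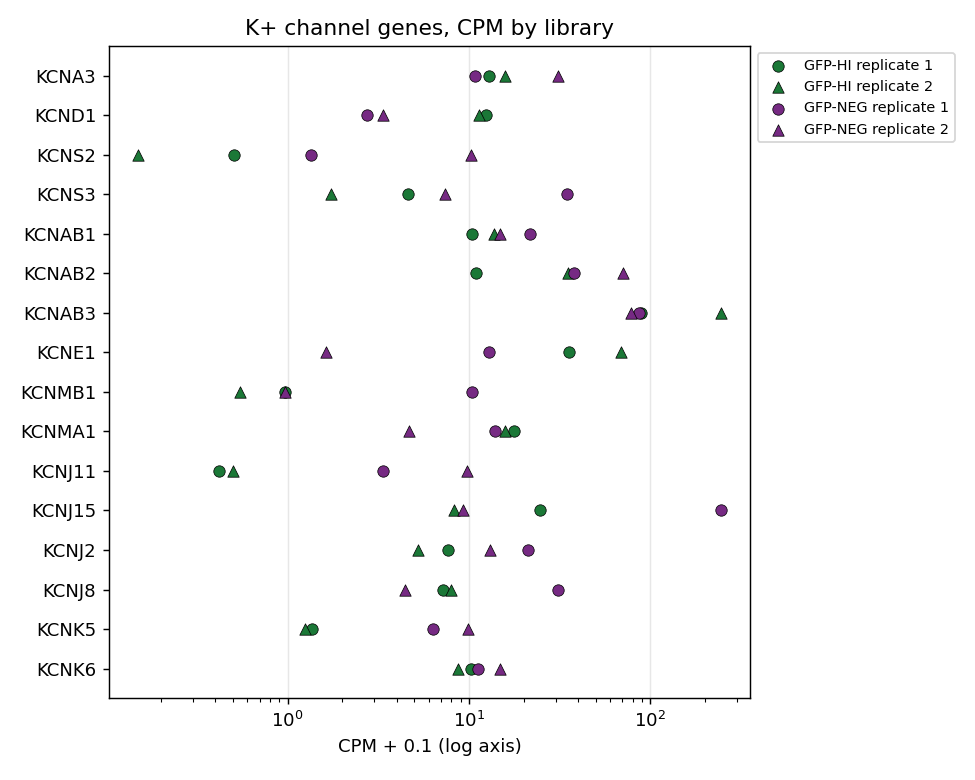
CPM plus 0.1 (x axis, log scale) of the potassium channel genes named above 5 or 10 CPM, with KCNE1, in each library; green symbols are GFP-HI, purple GFP-NEG, circles replicate 1 and triangles replicate 2. KCND1 and KCNE1 have both green symbols right of the purple ones, as do KCNAB3 and KCNMA1, which were not called. KCNJ15, KCNJ8 and KCNMB1 have only the purple circle, GFP-NEG replicate 1, far to the right.

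The 26 lower calls with means under 5 CPM were alike in level. None exceeded 14 counts in a GFP-HI library, and they had 5 to 29 counts in replicate 1 of GFP-NEG and 11 to 67 in its replicate 2. In 24 of the 26 the CPM was higher in GFP-NEG replicate 2 than in replicate 1. So it was in 78 of all 108 members, and the shift ran through the whole data. The median over all genes was 2.01 CPM in GFP-NEG replicate 1 and 3.91 CPM in GFP-NEG replicate 2. For the 11 with no count in GFP-HI, the lower GFP-NEG library was at 5.21 to 17.7 times the level of 3 GFP-HI counts. With as few as 5 counts in that GFP-NEG library, this ratio is no lower limit of the fold. Many of these genes are best known from neurons or muscle, such as KCNA1, KCNC1 and KCNQ3. Olfactory receptor genes, which belong to the nose, were also found more widely in GFP-NEG: 4.76% and 1.90% of them had a count in the GFP-HI libraries, against 54.3% and 86.7% in the GFP-NEG libraries. In both GFP-NEG libraries 10 of the 26 channel genes lay under the 95th percentile of the olfactory receptor genes (1.36 and 4.84 CPM). Under the 95th percentile of 31 genes that mark other organs (15.9 and 7.06 CPM) lay 25 of the 26, and 2 of the 8 lower calls with a mean of at least 5 CPM. The 26 were chosen for means under 5 CPM, which largely fixed that outcome in advance, so nothing is read from it. Some of the 31 genes had clear counts that raise the cut, such as GFAP (35.6 CPM) and AMH (21.2 CPM) in GFP-NEG replicate 1. Over all 34 lower calls the shares under the olfactory and the other-organ cuts were 29.4% and 79.4%, beside 23.8% and 63.7% of all 5433 genes called lower. The 25 genes above make up most of the 79.4%. Of the 31 genes of other organs 13 were tested, 5 were lower and 1 was higher, beside 27.6% lower and 8.35% higher over all tested genes. What these low GFP-NEG levels come from was not tested.

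The wider list of 44 partner genes, of which 40 were in the tables and 34 tested, had 2 higher calls (CACHD1 and GEM) and 6 lower, with a median log2 fold change of -0.39. ORAI1, the pore of store-operated calcium entry in immune cells, was at 3.26 and 3.17 CPM in GFP-HI against 25.4 and 9.33 CPM in GFP-NEG (log2 fold change -2.43, SE 0.70, adjusted p = 0.0024). Its fold change was -1.50 without GFP-NEG replicate 1 (adjusted p = 0.22), and the call was lost without either GFP-HI library as well (adjusted p = 0.059 and 0.057). ATP2A3, the calcium pump of the endoplasmic reticulum in blood cells, was at 6.84 and 4.26 CPM against 43.4 and 75.3 CPM, with no overlap (log2 fold change -3.43, SE 0.57, adjusted p = 1.4e-07), and was called in each fit without 1 library. ATP2B2 and SLC8A3 were lower at means under 5 CPM, SLC8A3 not with the replicate block (adjusted p = 0.058). None of the inositol trisphosphate receptors ITPR1, ITPR2 and ITPR3, the ryanodine receptors RYR2 and RYR3, the calcium sensors STIM1 and STIM2 or the calmodulin gene CALM3 passed the test.

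The authors' deposited table lists 50 of the 108 members and has 2 of them higher and 7 lower in the GFP-positive libraries, against 8.2% and 11.2% of its 16250 genes. All 9 were called in the same direction here. The higher genes in the authors' deposited table are CACNA1G (log2 fold change 1.83, adjusted p = 0.034) and KCND1 (1.97, adjusted p = 0.031), and the lower genes are CACNB4, KCNJ11, KCNJ16, KCNK5, KCNMB1, KCNS2 and KCNS3. CACNA2D3 is outside those 50, as are 24 of the 34 genes called lower here.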

How the data were processed

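Lung cells sorted for GFP were measured by RNA sequencing in 4 libraries. The authors deposited whole-number counts per gene. The submitters' processing notes name featureCounts, Subread 1.5.2 and DESeq2 1.37.6. Aligner, strand setting and filters are not given in the sources used here. An annotation version stands only in the name of the authors' comparison table, and no label names the build. The authors' deposited comparison table adds log2 fold changes and adjusted p-values; its count columns equal the single tables, and 4 further per-sample columns were not used. Libraries were made with Nextera XT, per the labels, a kit that does not mark strand. Reads from a stretch shared by overlapping genes therefore cannot be told apart by strand. Overlaps are given here by whole gene spans, and whether exons are shared was not tested.

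Counts were tested with edgeR 4.0.16 (R 4.3.3; quasi-likelihood F test, TMM scaling, filterByExpr, group only; 19682 genes; Benjamini-Hochberg; common dispersion 0.239, with genewise spread moderated fully to the trend). The standard error is the log2 fold change divided by the square root of F. DESeq2 1.42.0 was an alternative, beside other scalings and filters, thinned GFP-HI counts, a replicate block and fits without each library. In those last fits a lone library is assumed to vary like the other group. The procedure was tested on simulated data. Identifiers were matched to symbols for 834 rows. Replicate numbers pair the libraries of 1 animal by the headings of the comparison table, which name pig 1 and pig 2, taken here as replicates 1 and 2. Some of these headings stand over values that do not follow the counts of the library they name, so those columns were not used and the pairing rests on the names alone; deviations of same-numbered libraries from their group means correlated at 0.19 across genes (log2 of CPM + 1). Members and gene lists were chosen with earlier results of these data known. Named genes are LGR5, called members with a mean of at least 5 CPM in either group, other members of at least 10 CPM, members at 0 counts throughout and, for a class left without a name, its member with the highest mean; genes named beyond these were chosen after their values were seen. Intervals and floors of 3 counts cover counting error only. Ratios of a GFP-NEG library to such a floor leave out the counting error of the GFP-NEG library. Some genes are not reported here.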

Additional observations from a re-analysis of the deposited data

How the results depend on the processing

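With 2 libraries a group and shallow GFP-NEG libraries, single libraries set much of the result. CACNA2D3 was called higher in every fit; the number of higher members, 3, became 1 under upper-quartile scaling, library totals alone and thinned GFP-HI counts, and 1 to 2 when single libraries were left out. The 34 lower members became 15 with thinned counts (47 members tested), 7 at a mean of at least 5 CPM (a choice made after seeing the data) and 8 to 20 without single libraries. The median of -1.89 was -2.34 under upper-quartile scaling, -2.47 with library totals alone, -3.14 without a filter, -3.24 in DESeq2, -1.44 with the replicate block, -0.74 with thinned counts, -0.52 at a mean of at least 5 CPM, and -2.62 to -0.30 without single libraries; over all genes it moved from -0.25 to -0.68 with library totals alone. The 5 members near zero became 17 at under 1 CPM, and 5 to 24 in the fits without 1 library. In those fits the log2 fold change ranged from -1.08 to 0.37 for KCNA3, -3.94 to 0.89 for KCNJ15 and -2.07 to 0.82 for KCNJ8, each changing sign. LGR5 kept its call throughout. With the replicate block 26 members were lower and 4 higher; among genes named above, KCNMB1, KCNQ1, ABCC9 and SLC8A3 lost their call, CACNA2D1, KCNJ2 and REM1 gained one, and no other call of a named channel or partner gene changed.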

Other observations

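Of the 108 channel genes 106 were matched by symbol in the RefSeq annotation (Sscrofa11.1), where the whole spans of 17 overlap another protein-coding gene. KCNAB1 overlaps SSR3, which had 2849 and 6719 counts in GFP-HI against 687 and 1127 in GFP-NEG; KCNAB1 had 228 and 274 against 139 and 136. KCNRG, a regulator of KCNA channel assembly, overlaps TRIM13 (430 and 514 counts in GFP-HI, 91 and 83 in GFP-NEG), and KCNN3 overlaps PMVK (811 and 1105, and 197 and 193). CACNA2D3 overlaps LRTM1, which had 6 and 17 counts in GFP-HI against 8 and 45 in GFP-NEG, where CACNA2D3 had 411 and 153 against 2 and 2. KCNAB3, with 1961 and 4952 counts in GFP-HI against 556 and 718 in GFP-NEG, lies beside TRAPPC1 and overlaps a long noncoding RNA gene in that annotation; no count of either was matched by name. How reads were shared between these neighbours was not tested.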
